A study of Mus musculus with 4 samples.

Results

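The SV2, Munc13, RIM and CAPS proteins act on synaptic vesicles at the nerve terminal in the steps before release. SV2 proteins are glycoproteins of the vesicle membrane and carry the binding sites of the antiepileptic drug levetiracetam (SV2A) and of botulinum neurotoxin A (all forms, with SV2C the best known). Munc13 proteins open the SNARE protein syntaxin so that a docked vesicle becomes ready to fuse, which is called priming. RIM proteins are scaffolds of the active zone that bind Rab3 on the vesicle, Munc13 and calcium channels, and CAPS proteins prime dense-core vesicles, which carry peptides, and also contribute to priming of synaptic vesicles. Each family has paralogs that neurons use in different mixtures.

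The 10 genes described are Sv2a, Sv2b, Sv2c, Unc13a, Unc13b, Unc13c (the Munc13 genes), Rims1, Rims2, Cadps and Cadps2 (the CAPS genes), chosen by name from the 32285 genes in the matrices, and all 10 were found in every library. The study sorted V2a nuclei, from excitatory interneurons of the spinal cord, out of the cervical cord of female mice and sequenced their RNA with 10x Genomics 3' chemistry. All mice carried Chx10Cre/+ and ROSA26CAG-LSL-Sun1-sfGFP-Myc/+, so that cells with a history of Cre expression carry a fluorescent nuclear envelope. The 2 uninjured libraries came from segments C1 to C8, and the 2 injured libraries from C3 to C8 at 5 days after a C2 hemisection, so segment range and injury cannot be told apart. The labels do not say whether libraries came from separate or pooled animals, and p-values therefore measure only how these libraries vary, which may be technical variation.

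The libraries held 569 and 2399 uninjured and 601 and 432 injured nuclei, with 2901680 to 13496025 counts each, and 3573 of 4001 nuclei passed filters. Glutamatergic neuron-like nuclei, the class used below unless another is named, numbered 485 and 826 in uninjured libraries 1 and 2 and 417 and 339 in injured libraries 1 and 2. They fell in 9 of 20 clusters, each with the V2a-lineage genes Sox14, Lhx3 and Lhx4 among its stored entries. Uninjured library 2 stood apart, with 657 oligodendrocyte-like nuclei against 13 in uninjured library 1, so the sort had collected more than neurons there. A stored entry is a gene and nucleus pair present in a matrix, and 53.0% to 60.1% of stored entries per library held a 0. These zeros were read as detections emptied by the subtraction of free RNA that the matrices' name points to, so counts and stored entries are given as separate measures. The glutamate transporter Slc17a6, of which the class name required only some count in a cluster, shows why. It had a depth-matched stored entry in 71.8% or more of nuclei in every library, but its level in CPM (its counts divided by the library's summed counts and scaled to a fixed total) was 5.48 and 0.885 in uninjured libraries, against 0 and 50.1 in injured ones.

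Sv2a was nearly absent from the counts although it was stored in most nuclei. Its level was 0 and 0 CPM in uninjured libraries against 3.32 and 34.9 CPM in injured libraries, from 0, 0, 12 and 94 counts. Stored entries were present in 82.9% and 78.9% of uninjured and 71.9% and 73.7% of injured nuclei, and of these 0%, 0%, 3.00% and 22.0% kept a count. The groups did not overlap in counts, with both injured libraries above both uninjured ones as for 15.8% of genes tested, but the injured libraries lay far apart, and injured library 2 supplied 94 of the 106 counts. Against a floor of 3 counts over the uninjured group (0.192 CPM), the pooled injured level of 16.8 CPM was at least 87.5-fold higher. This bound rests on injured library 2: against the same floor, injured library 1 alone was at least 17.3-fold higher. Both bounds cover counting error in the deposited counts only. Because most uninjured nuclei had a stored entry that held 0, they set no lower limit on a difference in RNA level. When the percent of nuclei with a stored entry was matched between libraries on stored entries per nucleus, Sv2a stood at 78.4% and 76.6% in uninjured libraries against 78.4% and 77.6% in injured libraries, a log2 difference of 0.01 (SE 0.04, adjusted p = 0.948, limma). The count difference had an adjusted p of 1.00 in edgeR's quasi-likelihood test, 0.0163 in the same test with no filter on low counts and 0.0136 in DESeq2. Without injured library 2 Sv2a had too few counts to be tested.

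Other genes shared parts of this record. Of 3204 genes stored in at least 50% of nuclei of every library, 138 (4.31%) had 0 counts in both uninjured libraries. Of those, 59 had some count in an injured library, but only 7, Sv2a among them, had counts in both injured libraries. Scamp5, a secretory carrier protein of vesicles, had 0 and 1.99 CPM in uninjured libraries against 1.94 and 39.4 CPM in injured libraries. It is therefore not among the 138. As with Sv2a and Slc17a6, the highest value of Scamp5 was in injured library 2. Whether the subtraction took part in the Sv2a difference was not tested.

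**Figure D1:**
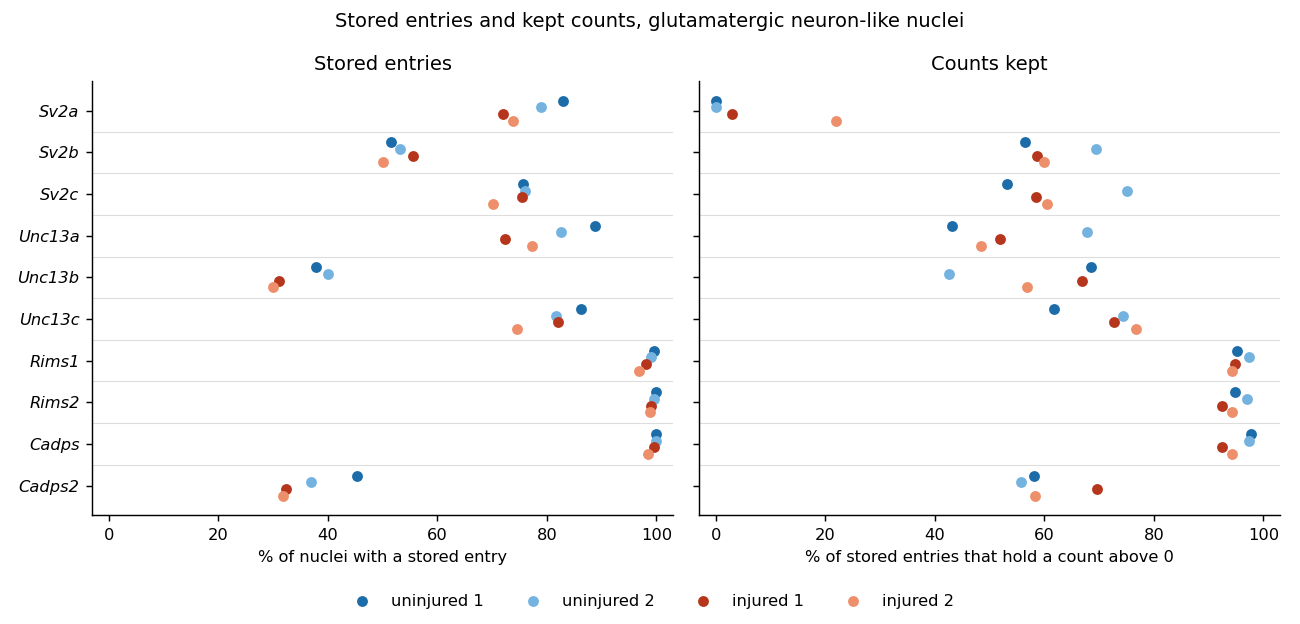
Percent of glutamatergic neuron-like nuclei with a stored entry (left, x axis) and percent of those entries that held a count above 0 (right, x axis), for the 10 genes (y axis), 1 point per library. Sv2a is stored in 71.9% to 82.9% of nuclei but keeps a count in at most 22.0% of its entries, whereas Rims1, Rims2 and Cadps keep more than 92%.

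Sv2b and Sv2c were the SV2 genes with counts. Sv2b stood at 144 and 170 CPM in uninjured libraries against 136 and 130 CPM in injured libraries, and Sv2c at 230 and 336 CPM against 277 and 232 CPM. Sv2c therefore exceeded Sv2b in every library, also per kilobase of gene span, at 1.51 ± 0.278 against 0.745 ± 0.0908 CPM per kb (SD, n = 4). Sv2b lies at chr7:75114894-75309262 and Sv2c at chr13:95954594-96132577, both on the minus strand (GRCm38, GENCODE). Both paralogs were high in cluster 1, whereas cluster 9 was high in Sv2b only (below). The stretches around their start sites are shown, 250 bases before to 50 after, 5′ to 3′ on the gene's strand, from RefSeq on GRCm38.p6, with CpG pairs in capitals:
Sv2b: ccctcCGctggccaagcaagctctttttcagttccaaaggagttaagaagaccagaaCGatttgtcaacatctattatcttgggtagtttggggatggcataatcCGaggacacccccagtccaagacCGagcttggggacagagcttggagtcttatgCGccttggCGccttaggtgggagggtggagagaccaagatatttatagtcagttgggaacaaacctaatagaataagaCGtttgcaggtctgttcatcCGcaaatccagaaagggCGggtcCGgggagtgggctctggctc
Sv2c: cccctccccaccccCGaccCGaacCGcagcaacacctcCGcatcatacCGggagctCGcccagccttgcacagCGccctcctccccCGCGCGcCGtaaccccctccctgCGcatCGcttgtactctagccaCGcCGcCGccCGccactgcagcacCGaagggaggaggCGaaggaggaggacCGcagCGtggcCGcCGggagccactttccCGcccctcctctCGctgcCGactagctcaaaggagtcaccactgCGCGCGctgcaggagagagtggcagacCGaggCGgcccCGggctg
The Sv2b window (chr7:75309213-75309512) is the most 5′ of 4 RefSeq entries and holds 10 CpGs, and the Sv2c window (chr13:96132528-96132827) holds 32. Of 32851 mouse promoter windows of this length, 43.5% had at least 10 and 9.52% at least 32. RefSeq windows were found for 9 of the 10 genes, and TAATTA (either strand), a core motif of homeodomain factors, was in none of them and in 5.29% of all windows.

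In counts, the neuron groups differed in which SV2 paralog they held. Clusters were made from expression, so these levels are a description with no test. Sv2b was highest in cluster 9, led by Dnah11, Hmcn2 and Irs4, at 351, 418, 228 and 277 CPM (uninjured 1 and 2, injured 1 and 2, the order used for every set of 4 values). Cluster 1, led by Col24a1 and P2rx6, followed at 310, 284, 227 and 294 CPM, and its range overlapped that of cluster 9. No other cluster reached either range: the next, clusters 6, 3 and 8, averaged 95.6, 94.0 and 90.6 CPM. In cluster 12, led by Col8a1 and Npsr1, Sv2b had 1, 0, 0 and 2 counts, and in cluster 10, led by Calcrl and Mtnr1a, 0, 0, 1 and 1. Stored entries also separated these clusters, with Sv2b in 62.9% to 76.9% of cluster 9 nuclei, 82.8% to 92.0% of cluster 1 nuclei and 4.65% to 13.0% of cluster 12 nuclei. Cluster 1 nuclei were the deepest (medians of 9862 to 19402 counts by library, against 6388 to 9455.5 in cluster 12), and depth raises the chance of a stored entry.

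Sv2c had another order. It was highest in cluster 1, at 459, 537, 463 and 397 CPM, where all 4 values but the lowest exceeded every other cluster's highest value. Cluster 8, led by Hgf and Adamts19, followed with a mean of 320 CPM, and the neighbours below it in the order overlapped down to cluster 10 at 18.9 CPM. Sv2b made up 85.0% ± 10.1 of SV2 counts in cluster 9, 37.5% ± 4.39 in cluster 1 and 2.69% ± 3.77 in cluster 12 (SD, n = 4 libraries), and Sv2c made up 90.7% ± 9.46 in cluster 12. Thus, in counts, cluster 1 held both Sv2b and Sv2c, and cluster 9 mainly Sv2b. Sv2a hardly enters these shares, since at most 22.0% of its stored entries in a library kept a count. The shares therefore do not give the full SV2 mixture.

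**Figure D2:**
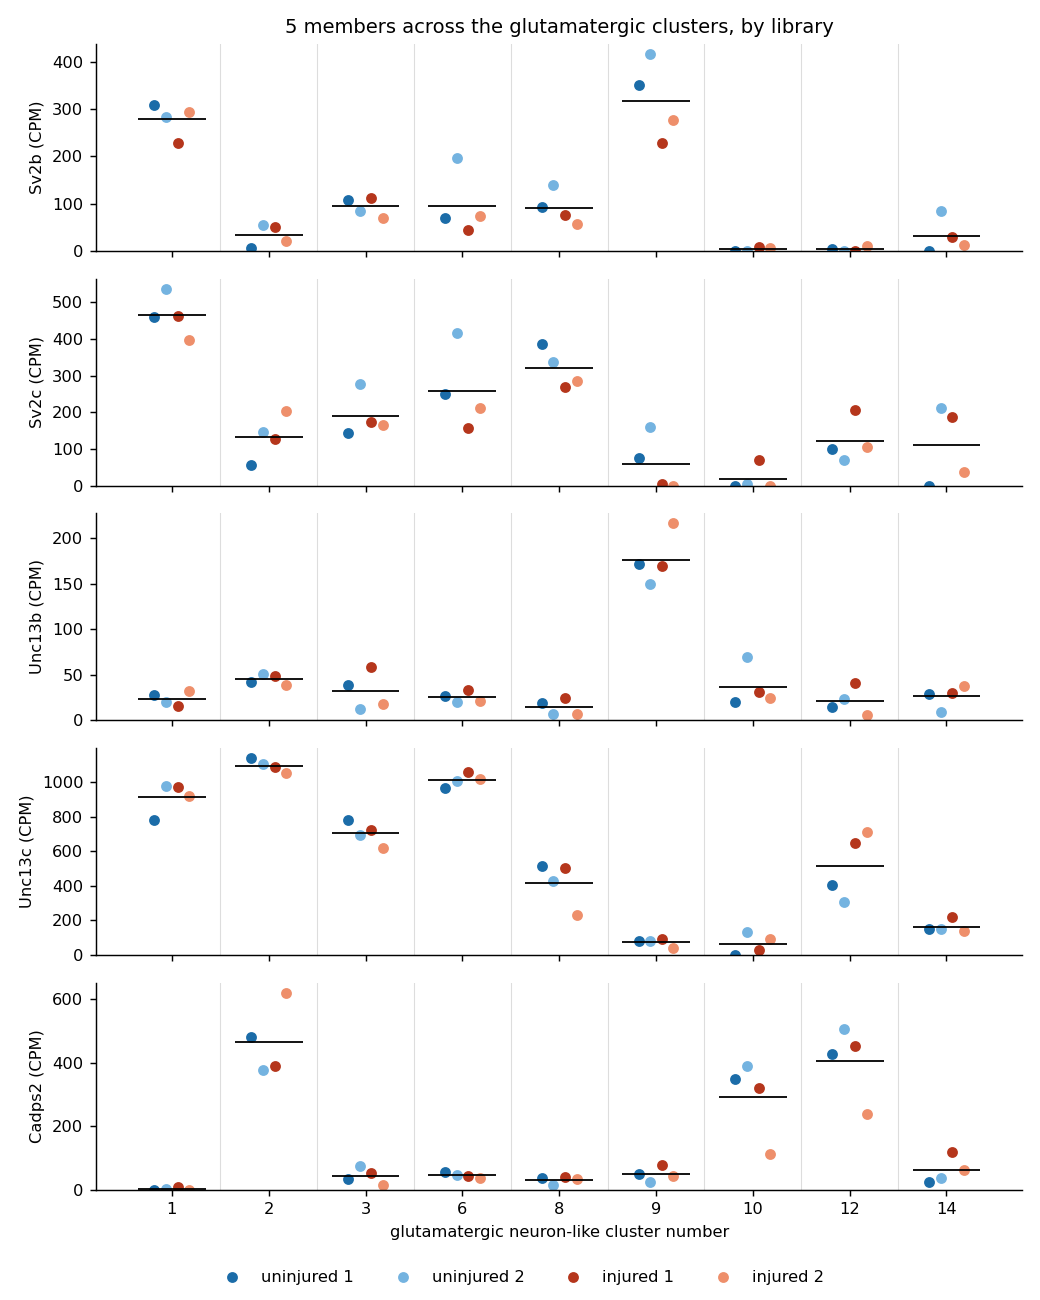
Level in CPM (y axis) of 5 members in the 9 glutamatergic clusters (x axis), 1 point per library, with the mean as a line. Sv2b is high in clusters 1 and 9, Unc13b in cluster 9, Cadps2 in clusters 2, 10 and 12, and Unc13c is low in clusters 9, 10 and 14.

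Among the Munc13 genes, Unc13c had the most counts. Unc13a stood at 68.9 and 123 CPM in uninjured libraries against 89.7 and 87.3 CPM in injured libraries, Unc13b at 39.6 and 30.6 against 38.8 and 32.3 CPM, and Unc13c at 721 and 817 against 793 and 685 CPM. The groups overlapped for all 3 genes. Per kilobase of gene span Unc13a averaged 1.95 ± 0.475, Unc13c 1.54 ± 0.126 and Unc13b 0.172 ± 0.0219 CPM per kb (SD, n = 4). Unc13a lay above Unc13c on this scale in every library but uninjured library 1, where they stood at 1.46 and 1.47 CPM per kb. Unc13a overlaps Colgalt1 on the opposite strand, and the use of strand in counting is not given in the sources used here.

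Unc13a, the Munc13 gene on which most excitatory synapses of the forebrain depend, varied little between clusters. Its cluster means ran from 70.3 to 129 CPM, and each overlapped its neighbour in the order. Among the glutamatergic clusters, Unc13b was high in 1. In cluster 9 it stood at 171, 149, 169 and 217 CPM, above every value of the other glutamatergic clusters, the next mean being 45.1 CPM in cluster 2, led by Qrfprl, Pde3a and Lhx1. Other neurons also held it: cluster 7, an unnamed neuron cluster led by Nmu, Ebf2 and Lmx1b, had 326 CPM in uninjured library 2. Cluster 2 itself was named by the rule for glutamatergic clusters, with 12 Slc17a6 counts in 406 nuclei, but Gad2, an inhibitory marker, reached 4-fold over the other nuclei there. Whether it holds inhibitory neurons was not tested. Unc13c was low in cluster 9, at 81, 82, 91.3 and 43.3 CPM, and in cluster 10, at 0, 133, 31.4 and 93.1 CPM. In cluster 2, the next after cluster 9 for Unc13b, Unc13c stood at 1138, 1102, 1085 and 1054 CPM. Cluster 14, led by Arhgap15 and Angpt1, lay between at 164 CPM and overlapped neither the cluster above nor the cluster below it. Stored entries of Unc13c showed a smaller contrast, with 42.9% to 61.5% of nuclei in cluster 9 and 85.0% to 90.7% in cluster 2.

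As shares of Munc13 counts, Unc13c made up 85.6% to 89.9% on average in clusters 1, 2, 3 and 6, and 19.8% ± 5.08 in cluster 9. There Unc13b made up 47.4% ± 9.22 and Unc13a 32.8% ± 4.19 (SD, n = 4). In cluster 10, Unc13a led with a mean of 62.1% (44.6% to 83.9%) in the 3 libraries with at least 20 Munc13 counts. So the cluster with the highest share of Sv2b among SV2 counts was also the one with the highest share of Unc13b among Munc13 counts.

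**Figure D3:**
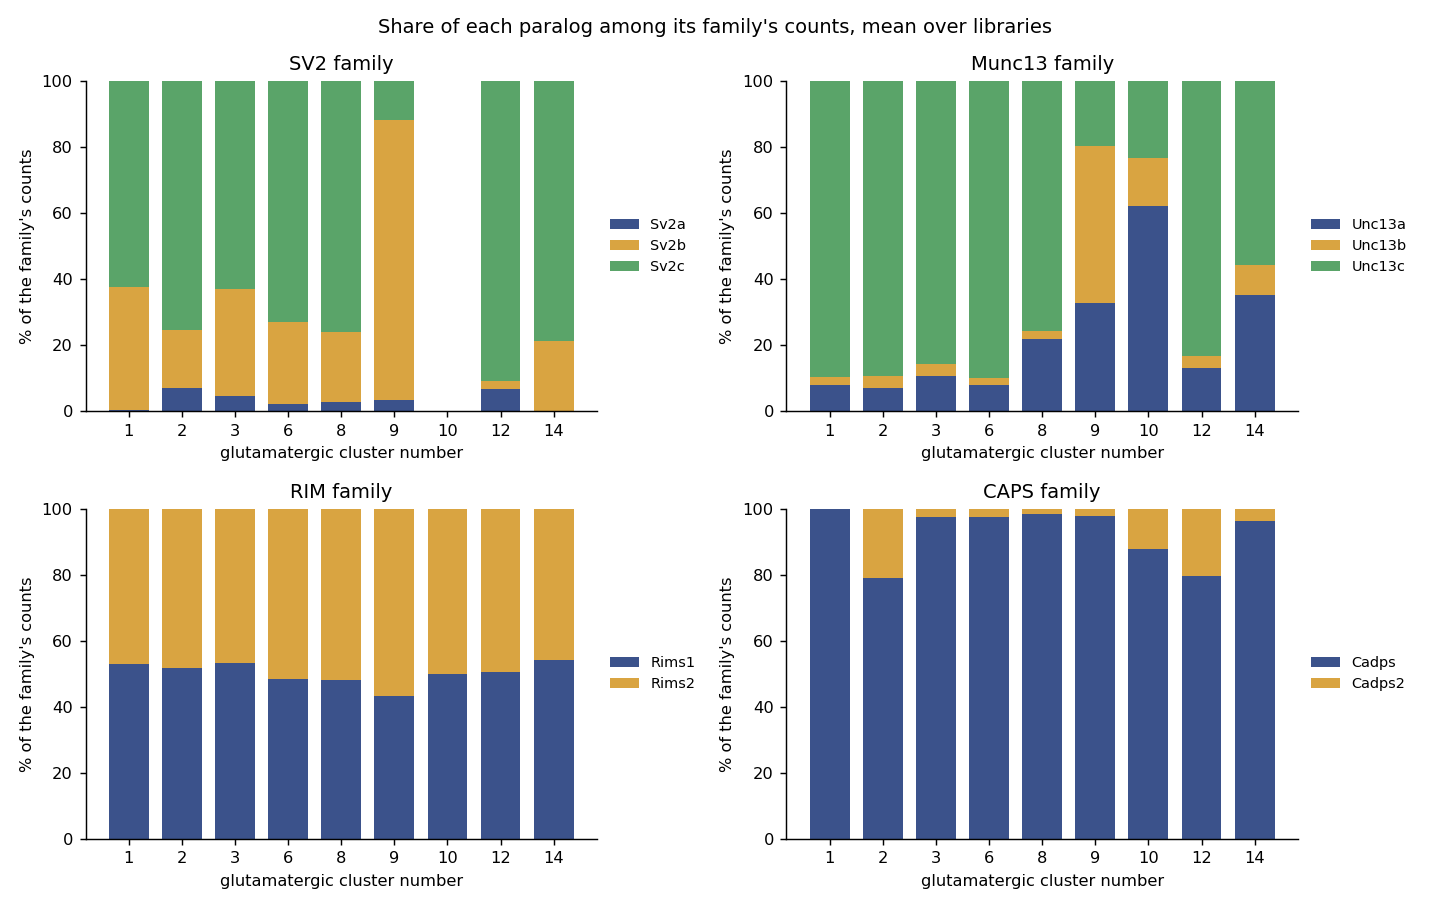
Share of each paralog in its family's counts (y axis, percent, mean over libraries with at least 20 family counts) in the 9 glutamatergic clusters (x axis). Sv2a hardly enters the SV2 shares, because few of its stored entries kept a count. Sv2b and Unc13b have their highest shares in cluster 9, Unc13a in cluster 10 and Cadps2 in clusters 2 and 12, while the RIM panel is near even throughout; cluster 10 has no SV2 bar because no library reached 20 SV2 counts there, and the SV2 bar of cluster 14 rests on 2 libraries.

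The RIM genes had high and even levels. Rims1 stood at 1450 and 1550 CPM in uninjured libraries against 1491 and 1231 CPM in injured libraries. Rims2 stood at 1454 and 1491 CPM against 1281 and 1237 CPM, so its groups did not overlap. Both were stored in 96.8% or more of nuclei in every library. Over the 9 clusters the coefficient of variation of the mean level was 10.3% for Rims1 and 6.77% for Rims2, the lowest of the 10 genes, against 113% for Unc13b. Rims1 made up 43.4% to 54.1% of RIM counts on average in each cluster, lowest in cluster 9.

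Of the CAPS genes, Cadps was the most abundant of the 10 and Cadps2 was restricted to some clusters. Cadps stood at 1867 and 2101 CPM in uninjured libraries against 1891 and 1706 CPM in injured libraries, or 4.20 ± 0.361 CPM per kb (SD, n = 4). Cadps2 stood at 129 and 124 CPM against 97.2 and 113 CPM, or 0.201 ± 0.0243 CPM per kb, with no overlap between groups. Cadps lies at chr14:12372563-12823079 and Cadps2 at chr6:23262773-23839421, both on the minus strand. Their start-site windows are shown in the same form, as the pair with the widest contrast between an even and a restricted paralog:
Cadps: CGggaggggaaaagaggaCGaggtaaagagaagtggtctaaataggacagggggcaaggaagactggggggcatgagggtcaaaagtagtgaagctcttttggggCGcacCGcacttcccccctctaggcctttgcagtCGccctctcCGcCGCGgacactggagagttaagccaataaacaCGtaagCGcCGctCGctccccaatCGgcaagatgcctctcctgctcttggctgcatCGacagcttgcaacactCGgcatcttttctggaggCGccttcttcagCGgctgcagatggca
Cadps2: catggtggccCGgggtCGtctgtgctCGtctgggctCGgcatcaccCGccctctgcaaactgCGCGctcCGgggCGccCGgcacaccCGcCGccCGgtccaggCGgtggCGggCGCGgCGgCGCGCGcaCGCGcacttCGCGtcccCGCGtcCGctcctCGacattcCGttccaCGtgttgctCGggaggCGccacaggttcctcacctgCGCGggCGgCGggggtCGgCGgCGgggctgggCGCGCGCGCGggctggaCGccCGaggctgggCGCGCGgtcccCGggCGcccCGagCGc
The Cadps window (chr14:12823030-12823329) holds 17 CpGs and the Cadps2 window (chr6:23839372-23839671) holds 54, a number reached by 0.347% of all windows.

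Cadps2 was high in clusters 2, 12 and 10. Its values were 480, 376, 388 and 620 CPM in cluster 2, 428, 505, 453 and 237 CPM in cluster 12, and 349, 390, 322 and 112 CPM in cluster 10. The 3 ranges overlapped, and 11 of the 12 values exceeded every value of the other 6 clusters, the exception being injured library 2 in cluster 10, below the 118 CPM of injured library 1 in cluster 14. In cluster 1 Cadps2 had 1, 3, 14 and 0 counts, and 2.67% to 21.5% of nuclei had a stored entry, against 81.0% to 90.7% in cluster 12. Cadps2 made up 20.9% ± 5.21 of CAPS counts in cluster 2, 20.5% ± 4.15 in cluster 12, 12.2% ± 4.59 in cluster 10 and 0.135% ± 0.226 in cluster 1 (SD, n = 4). Cadps itself ranged from 1550 CPM in cluster 12 to 2369 CPM in cluster 9, with neighbours overlapping throughout.

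Glial and inhibitory neuron-like nuclei came almost wholly from uninjured library 2. In its 657 oligodendrocyte-like nuclei all 10 genes had 0 counts, which allows up to 2.29 CPM each, although Cadps was stored in 35.9% and Sv2a in 31.5% of them, at a median depth of 1782 counts, against 9371.5 in the glutamatergic nuclei of that library. The 13 oligodendrocyte-like nuclei of uninjured library 1 had 5 counts of Cadps (125 CPM), 2 of Rims2 and 2 of Unc13b, and 0 of the other members. Stored entries of a neuronal gene at such shares therefore also occur in cells that should lack it. The 109 astrocyte-like nuclei had 629 CPM of Unc13c, 237 CPM of Cadps and 183 CPM of Rims2, and 0 counts of the SV2 genes and Unc13a. The 31 oligodendrocyte precursor-like nuclei had 858 CPM of Unc13c, 610 CPM of Rims2 and 497 CPM of Rims1. Among neurons, the 116 inhibitory neuron-like nuclei, led by Pax2 and Gad1, had 1804 CPM of Unc13c, 2318 CPM of Rims2 and 169 CPM of Unc13b, but 10.5 CPM of Sv2b against 170 CPM in the glutamatergic nuclei of the same library. Astrocyte-like, precursor-like and inhibitory neuron-like nuclei reached 10 in that library only, so their values have no replicate check. Unnamed neurons were found in all libraries (53, 301, 89 and 40 nuclei) and mix clusters of different depth. Their Unc13b stood at 37.1, 186, 29 and 27.7 CPM and their Sv2b at 169, 51.6, 87.1 and 69.3 CPM.

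For 9 of the genes, all but Sv2a, other genes with the most similar pattern were sought over 14 neuron clusters by Pearson correlation of log2(CPM + 1). The clusters share libraries, so the values are descriptive. The closest to Sv2b were Ift43 (r = 0.92) and Atp11b (0.90), to Sv2c Fam13a and Hspa12a (both 0.89), to Unc13a Rnft1 (0.98) and Bach2 (0.96), and to Unc13b Fry (0.92) and Togaram1 (0.87). For Unc13c they were Mipep (0.85) and Grm8 (0.84), and for Cadps2 Rprd2 and Zbtb44 (both 0.84). Rims1 was closest to Grm7 (0.88) and Eefsec (0.86), Rims2 to Chchd6 and Dgkh (both 0.87), and Cadps to Cttn and Atcay (both 0.92). Between members, Sv2b and Sv2c correlated at 0.67, Sv2b and Cadps at 0.74, and Rims2 and Cadps at -0.73.

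Injury was compared in summed counts of the glutamatergic nuclei. No member passed edgeR's quasi-likelihood test, and none of the 11005 genes tested did (0%), with 210 genes (1.91%) at an unadjusted p under 0.05. Sv2a was the only member at that level. DESeq2 called 15 genes, 0.137% of those it gave an adjusted p, Sv2a among them. Leaving out uninjured library 1 raised edgeR's calls to 300 genes, 293 of them higher in the injured group and none of them a member.

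The direction was lower in the injured group for 8 of the 10 genes, with a median log2 fold change of -0.16, while 45.4% of all genes tested had a negative value and their median was 0.06. The 8 were Sv2b, Sv2c, Unc13a, Unc13c, Rims1, Rims2, Cadps and Cadps2. Rims2 had a log2 fold change of -0.24 (SE 0.17), Cadps2 of -0.28 (SE 0.18) and Sv2b of -0.26 (SE 0.22), each with an adjusted p of 1.00. In these 3 genes both injured libraries lay below both uninjured libraries, as in 15.7% of genes tested. Without uninjured library 2, 5 of the 10 genes had a negative value. When only genes with a count left in 50% or more of their stored entries were tested, 7 of 9 members had one. The members' median was then nearer 0, at -0.045, against 0.014 for all genes tested.

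**Figure D4:**
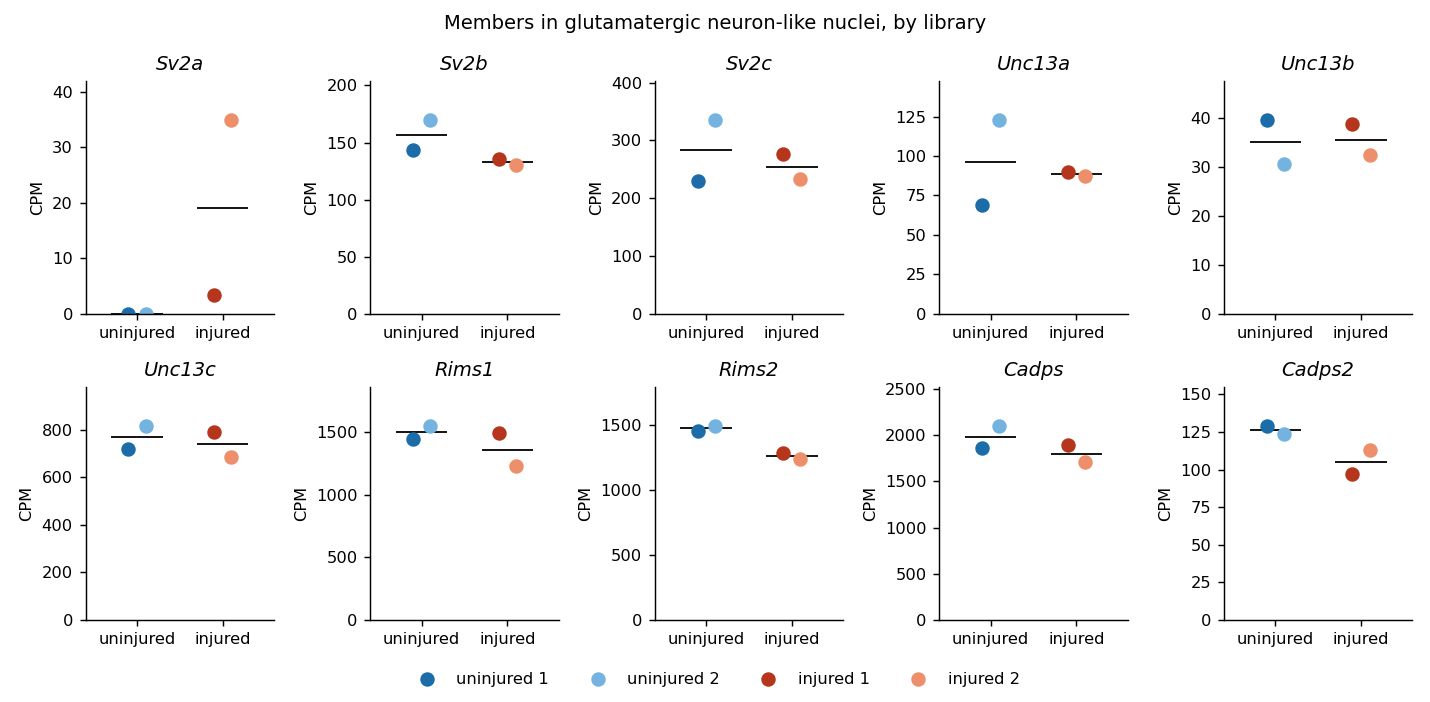
CPM (y axis, from 0) of each member in glutamatergic neuron-like nuclei, 1 point per library, with the group mean as a line, in uninjured and injured groups (x axis). The groups do not overlap for Sv2a, Sv2b, Rims2 and Cadps2; for Sv2a the injured libraries lie far apart at 3.32 and 34.9 CPM.

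Depth-matched stored entries gave a different order of the genes, with 6 of the 10 lower in the injured group against 56.8% of all genes tested. Rims1, Rims2 and Cadps are among the 6, but were stored in 97.5% or more of matched nuclei in every library. So near the ceiling of the measure, their signs carry little information. Of 17936 genes, 117 (0.652%) passed limma's test and none was a member. That number became 903 without injured library 1 and 254 without injured library 2, again with no member. Sv2b was stored in 45.6% and 51.4% of uninjured and 62.1% and 55.8% of injured nuclei, higher in both injured libraries. This was a log2 difference of 0.28 (SE 0.09, unadjusted p = 0.0114, adjusted p = 0.169, limma), in the opposite direction to its counts. Without matching on depth the difference was 0.01 (adjusted p = 0.928), and with all filtered nuclei 0.48 (adjusted p = 0.0605), both by limma, so its size depends on the nuclei and the matching. Sv2c also lay higher, at 70.7% and 73.7% against 83.2% and 75.7%, a log2 difference of 0.13 (SE 0.05, adjusted p = 0.241, limma). In 18.6% of all genes both injured libraries lay above both uninjured libraries. Cadps2 lay lower in both measures, at 46.2% and 37.0% against 34.1% and 30.2%, a log2 difference of -0.36 (SE 0.15, adjusted p = 0.277, limma). Unc13b and Cadps also had both injured libraries below both uninjured libraries, as did 28.4% of all genes, but Cadps lay near the ceiling, at 100% and 99.9% against 99.7% and 98.8%. Without matching on depth, limma called Unc13a lower in the injured group (log2 difference -0.19, adjusted p = 0.0295) among 3748 genes called, and with matching its adjusted p was 0.469.

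**Figure D5:**
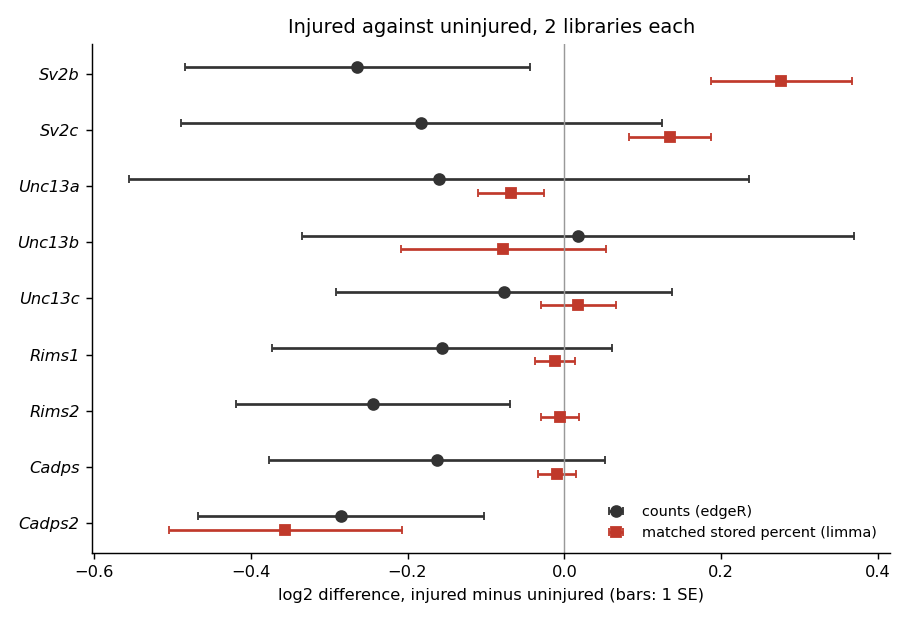
Log2 difference between injured and uninjured groups (x axis, bars 1 SE) for 9 members (y axis), in counts (circles) and in depth-matched percent of nuclei with a stored entry (squares). Sv2b and Sv2c lie on opposite sides of 0 in the 2 measures, whereas Cadps2 lies below 0 in both; Sv2a is left out because its uninjured libraries have 0 counts.

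The mixture of clusters moved with these comparisons. Cluster 2, which is rich in Cadps2, made up 20% and 25.1% of glutamatergic nuclei in the uninjured libraries, against 12.7% and 14.5% in the injured libraries. Within cluster 2 the Cadps2 values given above overlapped between groups. Over the 9 clusters mean Cadps2 was lower in the injured group in 4, clusters 10 and 12 among them. In cluster 10 it averaged 370 CPM in the uninjured and 217 CPM in the injured libraries, with no overlap. In cluster 12 the averages were 467 and 345 CPM, with overlap. Whether the mixture took part in the Cadps2 difference was not tested. Rims2 and Cadps were lower within most clusters, by values with no test. Mean Rims2 was lower in the injured group in 7 of 9 clusters and mean Cadps in 8 of 9, against 45.7% of all pairs of a tested gene and a cluster. Both injured libraries lay below both uninjured libraries in 5 clusters for Rims2 and in 5 for Cadps, against 14.0% of all such pairs. The other members had 0 to 3 such clusters. All clusters share the same libraries, so a shift of a whole library can recur in each, and clusters do not count as replicates. In the counts summed over clusters, Cadps overlapped between groups. In cluster 2 Rims2 stood at 1621 and 1706 CPM in uninjured libraries against 1095 and 1134 CPM in injured libraries, and in cluster 3, led by Tafa4 and Sema3a, at 1506 and 1593 against 1201 and 1248 CPM. The exceptions for Rims2 were cluster 12, at 1425 and 1426 CPM against 1611 and 1451 CPM, and cluster 14, where the groups overlapped at 1505 and 1180 against 1549 and 1148 CPM.

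Whether an injury difference varied between clusters was tested jointly over 8 clusters in edgeR, which called 12 of 7313 genes (0.164%) and no member. Sv2c had the smallest p of the members, 0.000449 before and 0.156 after adjustment. In cluster 9 Sv2c stood at 74 and 159 CPM in uninjured libraries against 4.56 and 0 CPM in injured libraries, from 32, 64, 1 and 0 counts. In cluster 12 it stood at 99.8 and 70.1 CPM against 206 and 106 CPM. Unc13c also lay higher in the injured libraries in cluster 12, at 402 and 304 against 645 and 712 CPM, with an adjusted p of 1.00 in the interaction test.

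Other genes of the release machinery gave no calls in either measure. Of 15 SNARE proteins and partners, 10 were tested in counts, 4 higher and 6 lower in the injured group (median log2 fold change -0.13). Snap25, a SNARE of the plasma membrane, averaged 569 ± 57.1 CPM in the uninjured and 310 ± 208 CPM in the injured libraries (SD, n = 2). Of 15 calcium sensors and related C2-domain proteins, 11 were tested, 3 higher and 8 lower (median -0.14). Syt1, the fast calcium sensor, stood at 1384 and 1448 against 1349 and 1260 CPM, and Syt9 at 57.8 and 43.6 against 32.4 and 35.6 CPM. Of 22 active zone scaffolds and Rab3 genes, 20 were tested, 9 higher and 11 lower (median -0.05). Pclo, the scaffold piccolo, stood at 1075 and 1204 against 1052 and 916 CPM. Of 20 genes for vesicle membrane and coat proteins, 14 were tested, 10 higher and 4 lower (median 0.19). In this list Bin1, an amphiphysin-like protein, had the smallest p, at 47.3 and 34.2 against 118 and 64.2 CPM, a log2 fold change of 1.17 (SE 0.41, unadjusted p = 0.0410, adjusted p = 1.00, edgeR).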

How the data were processed

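The deposited matrices give counts of unique molecular identifiers, in whole numbers, for each gene and nucleus. Per the submitters' processing notes, the authors worked on mm10 with Cell Ranger and with Seurat 5.0.0. The Cell Ranger version, the use of strand and the settings of SoupX, which the matrices are named for, were not given in the sources used here. Nuclei in which fewer than 500 genes had a count, or that were called doublets by Scrublet (scanpy 1.11.5, 0.584% of nuclei), were left out, and a mitochondrial maximum of 5% removed none. Of the kept nuclei, 1 barcode occurred in 2 or more libraries. Median counts per deposited nucleus were 10207, 3512, 4948 and 5985.5 (uninjured 1, 2, injured 1, 2). Libraries were integrated and clustered in Seurat 5.3.0 (2000 variable genes, 30 dimensions, resolution 0.5). Clusters were named from marker genes: a marker counted at 4-fold over other nuclei and a stored entry in 5% of nuclei, and 3 were needed. Neuron clusters with any Slc17a6 count and at least 3 stored V2a-lineage genes were called glutamatergic neuron-like. Cluster 16, with 47 nuclei, also stored Sox14, Lhx3 and Lhx4 but had 0 Slc17a6 counts, and stayed an unnamed neuron cluster. At a resolution of 1, a glutamatergic neuron-like cluster of 302 nuclei, led by Tafa4 like cluster 3, had the inhibitory marker Slc6a5 among its leading genes. Sv2b, Sv2c, Unc13b, Unc13c and Cadps2 were among the variable genes, so clustering was repeated without the members.

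Counts were summed per library over glutamatergic neuron-like nuclei and tested with edgeR 4.0.16 (quasi-likelihood F test, TMM, filterByExpr) in R 4.3.3, with Benjamini-Hochberg adjustment over all genes tested and a threshold of 0.05. DESeq2 1.42.0 was an alternative. The percent of nuclei with a stored entry, averaged over 5 bins of stored entries per nucleus, was tested with limma 3.58.1 on log2(percent + 1), a scale that understates changes of low values. The interaction of cluster and injury was tested in edgeR with library as a block, in clusters with at least 20 nuclei per library. CPM are counts scaled to a common library total. Cluster values need at least 10 nuclei in a library, and family shares at least 20 counts. Gene spans are from GENCODE on GRCm38 (mm10). Each test was checked on simulated data with large changes and no subtraction of free RNA. That check does not cover small differences or emptied counts. Floors (3 counts) cover counting error only.

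The 10 members and the gene lists were chosen with earlier results of these data known. Genes named besides the members were, per list, those with the 3 smallest p or 2 highest levels, and per member the 2 most similar genes of at least 20 CPM. A selection of these is printed.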

Additional observations from a re-analysis of the deposited data

How the results depend on the processing

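No member kept a call across tools and measures. Over all genes, the edgeR count of 0 calls became 12 with no filter on low counts, 15 in DESeq2 and 2 when only genes with a count left in 50% or more of their stored entries were tested (an alternative chosen after the data were seen), and leaving out 1 library gave 0 to 300. Of the members, 1 (Sv2a) was called with no filter and 1 (Sv2a) in DESeq2, and 1 (Unc13a) in stored entries not matched on depth. The interaction test called no member with RLE scaling or with the members left out of the clustering genes. The 20 cluster levels recomputed, each for a gene's highest cluster in that run, moved by less than 1 SD over libraries. This is a weak check, because the runs reused the same libraries and the highest cluster could differ. For Sv2a that SD (42.3 CPM) exceeded the mean (23.7 CPM). Without uninjured library 2 the highest cluster changed for Unc13a (10 to 9), Rims1 (14 to 3) and Rims2 (6 to 12). With the members left out of the clustering genes, 8 glutamatergic clusters formed. A cluster of 214 nuclei there shared leading genes with clusters 12 and 14. Its shares of Sv2b (9.53%), Unc13c and Cadps2 lay between theirs. The separate profiles of clusters 12 and 14 therefore rest on the main clustering. The replicate numbers were not found to pair the libraries (correlation of deviations -0.075 in counts, -0.058 in stored entries); a replicate block gave 0 calls over all genes in counts and 359 in stored entries, and 0 members in both measures. The 117 calls by limma in stored entries became 3748 without matching, 54 with 10 bins, 53 with a pseudocount of 0.1, 0 with no filter (limma, 3324 at an unadjusted p under 0.05), 219 with all filtered nuclei and 99 to 903 with 1 library left out.

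Directions of values with no call turned as follows. With all filtered nuclei the log2 fold change in counts was 0.034 for Sv2c, 0.020 for Unc13a and -0.51 for Unc13b, and the stored difference 0.10 for Unc13a, 0.15 for Rims1, 0.11 for Rims2 and 0.082 for Cadps. With no filter Unc13b was -0.016 in counts, and Unc13c was 0.040 when only genes with counts left were tested. Without matching, stored differences were -0.15 for Sv2a, -0.06 for Sv2c and -0.10 for Unc13c. Leaving out 1 library gave ranges in counts of -0.51 to 0.22 for Sv2c, -0.59 to 0.43 for Unc13a, -0.16 to 0.19 for Unc13b, -0.26 to 0.11 for Unc13c, -0.33 to 0.022 for Rims1 and -0.34 to 0.018 for Cadps, and in stored entries of -0.0078 to 0.025 for Sv2a and -0.050 to 0.085 for Unc13c. The cause was not tested. Sv2b, Rims2 and Cadps2 stayed negative in counts under every alternative run. No value for Sv2a without injured library 2, or among genes with counts left, passed the filters. With 2 libraries per group, small differences cannot be told from library spread, and few stored entries of Sv2a kept a count.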
